A study of Homo sapiens with 6 samples.

Results

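The genes described are 35 members of glycolysis, glucose transport and the response to hypoxia, taken as all probes whose gene symbol is one of the 35. Probes were found for 32 of them (57 of 47231 probes), among 20046 named genes in all. The expression of SLC16A1, SLC16A3 and CA9 was not analysed here. RNA was profiled in SK-Hep1 cells, an established human line that the labels call hepatic adenocarcinoma cells, on 1-colour Illumina bead arrays. The 3 knockdown samples (siYAP1&TAZ) carried siRNA against both YAP1 and TAZ, and the 3 control samples (siCon, also labelled siLuc) carried a control siRNA, all for 3 days. YAP1 and TAZ are transcriptional co-activators restrained by the Hippo kinases, and both were depleted in the same cells, so their separate parts cannot be told apart. The siRNA sequences and the oxygen and glucose supply of the cultures were not analysed here. No label says that replicates were separate cultures, and the p-values therefore rest on a spread among samples that may be technical.

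Glycolysis splits glucose into pyruvate in the cytosol, and lactate dehydrogenase turns pyruvate into lactate. Several steps are carried by isozymes from different genes, which differ in regulation and tissue. The hypoxia-inducible factors (HIF) switch on many of these genes when oxygen is short. In oxygenated cells prolyl hydroxylases of the EGLN family mark the HIF alpha subunits, and the VHL ubiquitin ligase has them degraded, so that HIF activity is set largely at the protein level.

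YAP1 averaged 8.39 ± 0.0504 on the knockdown arrays and 10.81 ± 0.043 on the control arrays (normalised log2 intensity, SD, n = 3 each), a log2 change of -2.42 (limma adjusted p = 2.15e-08). WWTR1, the gene of TAZ, was below background on all 3 knockdown arrays and at least 2.34-fold lower there (adjusted p = 6.75e-07). Each array had 13620 to 16827 probes over its background, and the number of arrays limited the precision. Of the hepatocyte markers with a probe, 4 of 13 were tested; APOA1, APOB, TTR, TF, FGB, CYP3A4 and AFP were among those that stayed below the filter. Albumin (ALB) read 6.20, 5.86 and 6.20 on the knockdown arrays, against 6.51, 6.59 and 6.61 on the control arrays, close to background. Of the other markers, 2 of 12 endothelial, 2 of 8 leukocyte and 4 of 10 fibroblast or smooth muscle genes were tested, and PECAM1, CDH5, VWF, PTPRC and CD3E stayed below the filter. Some of these markers rose, among them SERPINA1 (2.84-fold), CD14 (3.22-fold) and COL1A1 (1.81-fold). The summed normalised intensity of the tested hepatocyte markers was 1492 to 1587 on the knockdown arrays and 698 to 775 on the control arrays. SERPINA1 was much the brightest of these 4 (mean log2 10.35 on the knockdown and 8.85 on the control arrays), so the sum mostly follows it. Of the rest, ALB was called lower (log2 change -0.48, limma adjusted p = 0.00468), CYP2E1 rose 1.21-fold near background and ASGR1 did not pass (-0.14). The sum of the tested fibroblast or smooth muscle markers was 2508 to 2684 on the knockdown arrays and 1819 to 2027 on the control arrays. It mostly follows ACTA2 (mean log2 10.69 on the knockdown and 10.30 on the control arrays). A rise was called for 4 of these 4, beside 27.4% of all genes. LUM was below background on all 3 control arrays (at least 1.04-fold higher), and COL1A1 was above it on 1 of 3. PDGFRA, PDGFRB, DCN, COL1A2, MYH11 and DES stayed below the filter. The sums overlapped for endothelial markers (557 to 670 on the knockdown arrays, 408 to 611 on the control arrays) and leukocyte markers (3152 to 3697 and 2843 to 3416). The leukocyte sum mostly follows the brightest CD68 probe, which was not called (log2 change -0.05). The other tested CD68 probes rose 1.53-fold and 2.87-fold. The part of all these markers in the results below was not tested.

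Of the 30 members that passed the filter (above background on at least 3 of 6 arrays), 10 rose, 5 fell and 15 did not pass an adjusted p of 0.05. Calls were as common among all 9718 genes tested. Either direction was called for 50% of members and 54.8% of all genes, a rise for 33.3% and 27.4%, and a fall for 16.7% and 27.5%. The members' median log2 change was 0.13, with or without the member below background in the controls at its bound, beside 0.00 for all genes. Members ran from -0.75 to 1.43, each by its brightest tested probe. On those probes, rises of 2-fold or more were fitted for SLC2A3, NDRG1 and PDK4, 10% of members beside 5.2% of all genes, and no member fell 2-fold, beside 5.54% of all genes. The 3 knockdown arrays lay wholly to one side of the 3 control arrays for 15 members (50%), beside 62.4% of all genes. Whether the members stand out as a set was not tested, and the values below concern single genes and isozymes. In bulk RNA, a change in all cells and a change in the share of cells that express a gene cannot be told apart.

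**Figure D1:**
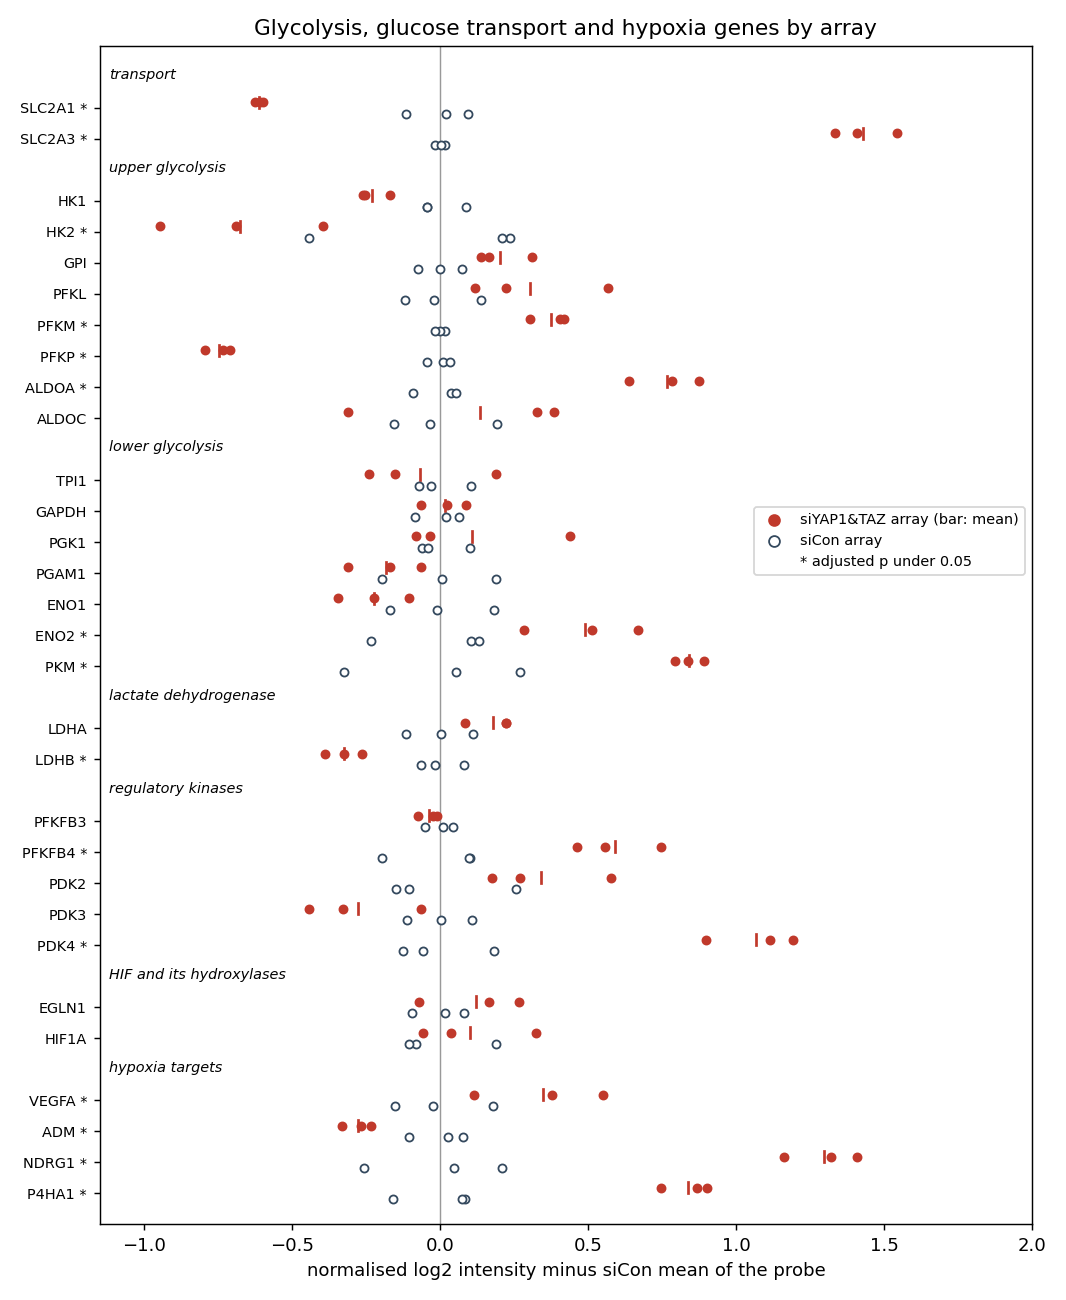
Each point is 1 array, as normalised log2 intensity minus the siCon mean of that probe, with 3 siYAP1&TAZ arrays (filled, bar at the mean) above 3 siCon arrays (open) for each of the 30 tested members, grouped by role; an asterisk marks an adjusted p under 0.05. SLC2A3, NDRG1 and PDK4 lie farthest to the right, and PFKP, HK2 and SLC2A1 farthest to the left.

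Promoter windows from RefSeq (GRCh38.p14, 250 bases before to 50 after a gene start) were found for 31 members, 60 windows in all. Members whose expression was not tested were included. The letters ACGTG or GCGTG form the core of the element that HIF binds. ACGTG, read on both strands, occurred in 23 of 60 member windows (38.3%) and in 21.4% of all 35116 windows; windows of a gene can overlap. GCGTG occurred in 38.3% and 36.5%. GGAATG, the core of the element that TEAD factors bind as partners of YAP1 and TAZ, occurred in 11.7% of member windows and 14.0% of all. At least 1 window with ACGTG was found for 4 of the 7 members that rose and had a window (ALDOA, ENO2, P4HA1 and PFKM), for 2 of the 5 that fell (HK2 and PFKP), and for 10 of the 15 that did not pass. GCGTG was found for 2 of the 7 that rose (PFKFB4 and PKM), 5 of the 5 that fell (ADM, HK2, LDHB, PFKP and SLC2A1) and 11 of the 15 that did not pass. GGAATG was found for 0 of the 7 that rose, 1 of the 5 that fell (PFKP) and 5 of the 15 that did not pass. These counts are by gene, whereas the shares of all windows are by window. No share by gene was taken over all genes. By window, ACGTG occurred in 7 of 15 windows of members that rose, 3 of 9 that fell and 10 of 27 that did not pass. GCGTG occurred in 2 of 15, 6 of 9 and 13 of 27, and GGAATG in 0 of 15, 2 of 9 and 5 of 27. SLC2A3, NDRG1 and VEGFA rose but had no window. To show the same core letters before a gene that rose, a gene that fell and a gene that did not pass, windows of P4HA1, HK2 and PGK1 are printed 5′ to 3′ with both forms of the HIF core, on either strand, in capitals.
P4HA1 (chr10:73096817-73097116, - strand): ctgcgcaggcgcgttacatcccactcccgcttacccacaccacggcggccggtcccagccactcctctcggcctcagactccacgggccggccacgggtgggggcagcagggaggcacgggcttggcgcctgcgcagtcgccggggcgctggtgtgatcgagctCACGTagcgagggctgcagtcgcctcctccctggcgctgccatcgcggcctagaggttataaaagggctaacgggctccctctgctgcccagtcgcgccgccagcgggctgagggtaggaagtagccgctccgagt
HK2 (chr2:74834920-74835219, + strand): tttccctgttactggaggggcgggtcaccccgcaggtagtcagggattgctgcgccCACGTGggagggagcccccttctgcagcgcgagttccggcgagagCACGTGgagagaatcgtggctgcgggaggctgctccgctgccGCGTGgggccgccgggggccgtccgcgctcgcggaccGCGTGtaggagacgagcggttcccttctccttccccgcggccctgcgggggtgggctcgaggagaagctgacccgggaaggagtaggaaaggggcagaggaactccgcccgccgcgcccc
PGK1 (chrX:78103998-78104297, + strand): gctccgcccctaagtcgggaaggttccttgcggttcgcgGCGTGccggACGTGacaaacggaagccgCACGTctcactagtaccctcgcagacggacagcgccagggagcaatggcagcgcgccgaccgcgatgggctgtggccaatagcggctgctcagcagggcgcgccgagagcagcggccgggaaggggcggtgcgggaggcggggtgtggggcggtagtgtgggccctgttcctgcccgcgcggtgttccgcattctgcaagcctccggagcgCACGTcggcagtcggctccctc
The P4HA1 window holds 1 match to ACGTG. The HK2 window, 1 of 2 for that gene, was printed because it ranked first by number of HIF core matches. It holds 4 matches to ACGTG and 2 to GCGTG. All 4 lie within the 2 copies of CACGTG (a palindrome that gives a match on each strand). The PGK1 window holds 3 matches to ACGTG and 1 to GCGTG.

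Glucose enters the cell through facilitative transporters of the SLC2A family, and the measured members moved in opposite directions. SLC2A1 encodes GLUT1, the transporter of basal uptake in many cells and in most tumour lines. It read 9.05, 9.06 and 9.03 on the knockdown arrays, against 9.68, 9.54 and 9.75 on the control arrays. All knockdown arrays lay below all control arrays, a 1.53-fold fall (log2 change -0.61 ± 0.0983 SE, adjusted p = 0.00034). SLC2A3 encodes GLUT3, a high-affinity transporter best known from neurons. It read 11.07, 10.86 and 10.93 on the knockdown arrays, against 9.51, 9.54 and 9.53 on the control arrays. The groups did not overlap, and SLC2A3 rose 2.69-fold (log2 change 1.43 ± 0.0982 SE, adjusted p = 6.18e-07). SLC2A14, a close paralog of SLC2A3 with near-identical sequence, rose at least 1.79-fold from below background in the controls, and how far its probe and that of SLC2A3 read each other's transcripts is uncertain.

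Other genes of glycolysis and glucose transport, from a list of 26, went both ways: of 12 tested, 3 rose, 3 fell and 6 did not pass (50% called beside 54.8% of all genes, median log2 change 0.04). The rises were all in transporters. SLC2A10 read 8.22, 8.28 and 8.16 on the knockdown arrays, against 6.83, 6.67 and 7.04 on the control arrays, 2.59-fold higher, and its other probe rose 2.11-fold. SLC2A6 rose 2.28-fold. SLC2A8, another transporter, fell 1.29-fold, HKDC1, a hexokinase domain protein, 1.24-fold and ADPGK, a glucokinase that uses ADP, 1.22-fold. SLC2A8 lay near background, above it on 2 of 3 knockdown arrays. In this list 1 fall was called with arrays scaled to a common median in place of quantile normalisation, and 0 without the background filter. Falls among all genes then numbered 2475 and 2051, in place of 2670.

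The first steps trap glucose in the cell. The hexokinases HK2 and HK1 both had negative changes, of which that of HK2 was called. Whether their changes differ was not tested. HK2, the inducible hexokinase bound to mitochondria in many tumours, read 9.34, 9.64 and 9.08 on the knockdown arrays, against 10.26, 10.24 and 9.59 on the control arrays. The groups overlapped, since control replicate 3 lay below knockdown replicate 2, and the fall was 1.60-fold (log2 change -0.68 ± 0.188 SE, adjusted p = 0.0106, but 0.0515 at -0.57 without control replicate 2). Its other probe gave 8.80, 9.07 and 8.40 on the knockdown arrays, against 9.43, 9.41 and 9.72 on the control arrays, with no overlap and a 1.70-fold fall (adjusted p = 0.00203). HK1, the hexokinase of most tissues, had a log2 change of -0.23 (adjusted p = 0.0665), although its groups did not overlap. It was called lower with a normexp offset of 50 (limma adjusted p = 0.0443) and with the authors' values (0.0479). GPI, the isomerase that follows, was at 0.20 (adjusted p = 0.11).

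Phosphofructokinase, the main control point of the pathway, is a tetramer of subunits from 3 genes. PFKP, the platelet-type subunit, read 11.44, 11.46 and 11.37 on the knockdown arrays, against 12.18, 12.20 and 12.12 on the control arrays. It fell 1.68-fold (log2 change -0.75 ± 0.0931 SE and adjusted p = 5.5e-05), with no overlap between the groups. PFKM, the muscle-type subunit, read 8.99, 9.10 and 9.09 on the knockdown arrays, against 8.70, 8.68 and 8.67 on the control arrays, a 1.30-fold rise (adjusted p = 0.00569) that was not called under median scaling (log2 change 0.19, adjusted p = 0.473). The liver-type subunit PFKL had a log2 change of 0.30 and did not pass (adjusted p = 0.0724).

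Aldolase cleaves the resulting bisphosphate into 3-carbon sugars. ALDOA, the main aldolase of muscle and most tumour lines, read 12.00, 12.24 and 12.15 on the knockdown arrays, against 11.27, 11.40 and 11.42 on the control arrays, 1.70-fold higher with no overlap (log2 change 0.77 ± 0.104 SE, adjusted p = 9.93e-05). Its other tested probe rose 1.32-fold (adjusted p = 0.0157). ALDOC, the brain-type aldolase, lay near background (2 of 3 knockdown and 1 of 3 control arrays above it), with a log2 change of 0.13 that did not pass.

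Of the 7 tested enzymes of the lower part of the pathway, 2 were called (28.6%), beside 54.8% of all genes. The groups did not overlap for 28.6% of them, beside 62.4% of all genes. Whether these enzymes stand out as a set was not tested. TPI1, GAPDH, PGK1, PGAM1 and ENO1 had log2 changes between -0.22 and 0.11 on their brightest probes, and each had overlapping groups. GAPDH, the dehydrogenase often used as a loading control, read 14.06, 14.15 and 14.21 on the knockdown arrays, against 14.04, 14.15 and 14.19 on the control arrays. Its 3 probes had changes of 0.02, -0.04 and 0.12, and under median scaling the brightest was at 0.26 (adjusted p = 0.285), with all genes centred at -0.11. ENO1, the enolase of most tissues, was at -0.22 (adjusted p = 0.131), whereas ENO2, the neuronal enolase, rose 1.40-fold. ENO2 read 9.03, 9.19 and 8.80 on the knockdown arrays, against 8.62, 8.65 and 8.29 on the control arrays (log2 change 0.49 ± 0.133 SE, adjusted p = 0.00948). The ENO2 call was lost under median scaling (0.31, adjusted p = 0.206), without the background filter and with background level as a covariate.

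PKM, which encodes the pyruvate kinase of the last step and is spliced into the M1 and M2 isoforms, rose on all 3 of its probes by unequal amounts. The brightest read 12.97, 13.07 and 13.01 on the knockdown arrays, against 12.45, 12.23 and 11.85 on the control arrays. It rose 1.79-fold with no overlap (log2 change 0.84 ± 0.14 SE, adjusted p = 0.000429). The next probe read 11.95, 12.47 and 12.16 on the knockdown arrays, against 10.75, 10.36 and 10.29 on the control arrays, 3.31-fold higher (log2 change 1.73 ± 0.155 SE). The dimmest read 11.27, 11.94 and 11.50 on the knockdown arrays, against 9.36, 9.30 and 9.35 on the control arrays, 4.70-fold higher (log2 change 2.23 ± 0.15 SE, adjusted p = 5.42e-07). Whether these changes differ between probes was not tested. The annotation assigns the 3 probes to different transcript records of PKM, but which isoforms each probe reads is not settled by the files. With the mean of its probes PKM stood at 1.60.

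Lactate dehydrogenase is a tetramer of LDHA, which favours lactate formation, and LDHB, which favours the reverse. LDHB read 13.11, 13.23 and 13.17 on the knockdown arrays, against 13.48, 13.57 and 13.43 on the control arrays. The groups did not overlap, but the 1.25-fold fall (log2 change -0.33 ± 0.0966 SE, adjusted p = 0.0147) was not called under median scaling (adjusted p = 0.233), without the filter (0.113) or without control replicate 2 (0.0514). LDHA gave different answers by probe. Its brightest probe read 14.59, 14.59 and 14.45 on the knockdown arrays, against 14.48, 14.25 and 14.37 on the control arrays, and had a change of 0.18 (adjusted p = 0.173). It was called at 0.47 under median scaling (adjusted p = 0.0409), and the mean of the LDHA probes at 0.49 (0.00119). That probe had intensities of 25927 and 22852 on knockdown arrays 1 and 2, the highest of any probe on those arrays. Quantile normalisation gives the highest probe of each array the same value. Both readings of 14.59 were thus set by rank and could not be higher. How far this, or the top of the intensity scale, limited the change was not tested. The next probe was at 0.03. The dimmest LDHA probe read 9.68, 9.64 and 9.46 on the knockdown arrays, against 8.30, 8.19 and 8.44 on the control arrays, 2.43-fold higher (log2 change 1.28 ± 0.108 SE, adjusted p = 2.95e-06).

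**Figure D2:**
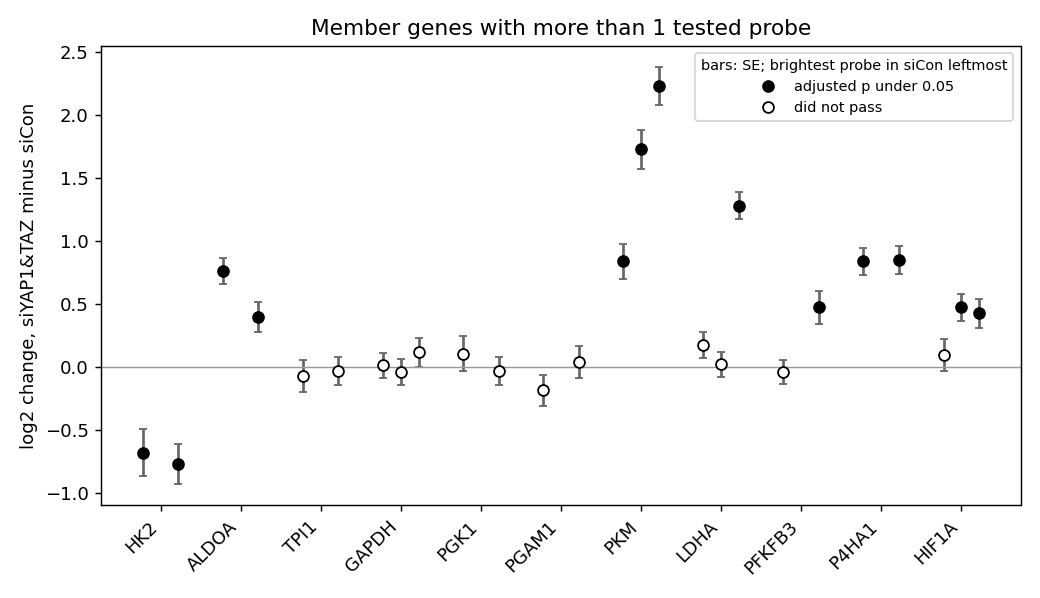
Points are log2 changes (siYAP1&TAZ minus siCon) of each tested probe of the 11 members with more than 1, with SE bars, ordered within a gene by control signal; filled points passed an adjusted p of 0.05. The probes of HK2, TPI1 and GAPDH lie close together, those of PKM run from 0.84 to 2.23, and 1 LDHA probe stands at 1.28 beside 0.18 and 0.03. The fitted change of the dimmer P4HA1 probe is drawn, although that probe has only a bound.

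Regulatory kinases act on the flow through the pathway and on the fate of pyruvate. PFKFB3 and PFKFB4 make and break fructose 2,6-bisphosphate, the activator of phosphofructokinase, and are known HIF targets. PFKFB4 read 9.02, 8.73 and 8.83 on the knockdown arrays, against 8.07, 8.37 and 8.36 on the control arrays, a 1.51-fold rise with no overlap (log2 change 0.59 ± 0.12 SE, adjusted p = 0.00163; 0.43 and 0.062 under median scaling). The brightest PFKFB3 probe was at -0.04 (adjusted p = 0.762) and the other at 0.47 (adjusted p = 0.00917), so that PFKFB3 had a call on 1 of its 2 probes.

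Pyruvate dehydrogenase kinases (PDK) inhibit pyruvate dehydrogenase in the mitochondrial matrix and so block the conversion of pyruvate to acetyl-CoA, and PDK4 is the isoform induced by fasting. PDK4 read 6.41, 6.70 and 6.62 on the knockdown arrays, all above background, against 5.69, 5.45 and 5.39 on the control arrays, all below it. It was at least 1.18-fold higher (fitted log2 change 1.07, adjusted p = 2.39e-05). PDK2 and PDK3, each above background on 3 of 6 arrays, had changes of 0.34 and -0.28 and did not pass, and PDK1 was above background on 0 of 3 knockdown arrays and 1 of 3 control arrays. Among 9 tested genes of pyruvate entry into mitochondria, 2 rose and 3 fell (55.6% called beside 54.8% of all genes). PDP1, the phosphatase that opposes the PDKs, rose 1.55-fold, and MPC2, a subunit of the mitochondrial pyruvate carrier, 1.27-fold; neither rise was called under median scaling. DLAT and PDHA1, subunits of pyruvate dehydrogenase, fell 1.55-fold and 1.31-fold, and citrate synthase (CS) fell 1.35-fold, although 1 of its 3 probes was at 0.27.

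HIF1A, the oxygen-labile alpha subunit, was not called on its brightest probe, which read 10.87, 11.15 and 10.77 on the knockdown arrays, against 11.02, 10.75 and 10.73 on the control arrays (log2 change 0.10, adjusted p = 0.54). Its other 2 probes rose 1.39-fold and 1.34-fold with no overlap (adjusted p = 0.00364 and 0.00874), and the mean of its probes stood at 0.33 (adjusted p = 0.0275). EGLN1, the main prolyl hydroxylase, was at 0.12 (adjusted p = 0.4), and EGLN3 stayed below background on all 6 arrays. Of 11 other tested components of the pathway, 3 rose, 1 fell and 7 did not pass, 36.4% called beside 54.8% of all genes. Under median scaling 1 gene of this list was called higher and 2 lower, where 1439 of all 9718 genes were called higher and 2475 lower. EPAS1, which encodes HIF-2 alpha, read 9.92, 9.94 and 9.65 on the knockdown arrays, against 8.02, 7.62 and 7.61 on the control arrays. It rose 4.25-fold with no overlap (log2 change 2.09 ± 0.134 SE, adjusted p = 3.97e-07). CITED2, a HIF-induced inhibitor that competes for the co-activators EP300 and CREBBP, rose 1.45-fold, and VHL rose 1.33-fold, although 1 of its 3 probes did not pass (0.21). ELOC, an elongin of the VHL ligase, fell 1.43-fold, and its other probe did not pass (-0.27).

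Of the 4 tested members known chiefly as hypoxia targets, 3 rose and 1 fell, beside 27.4% and 27.5% of all genes, and under median scaling NDRG1 and P4HA1 kept their calls while VEGFA and ADM lost theirs. NDRG1, a stress-induced cytosolic protein, read 9.57, 9.48 and 9.32 on the knockdown arrays, against 7.90, 8.37 and 8.21 on the control arrays, 2.46-fold higher (log2 change 1.30 ± 0.13 SE, adjusted p = 1.09e-05). P4HA1, a subunit of the collagen prolyl hydroxylase whose promoter window is printed above, read 10.95, 10.92 and 10.80 on the knockdown arrays, against 10.14, 10.13 and 9.89 on the control arrays. It rose 1.79-fold with no overlap (log2 change 0.84 ± 0.106 SE, adjusted p = 6.14e-05). A further probe of P4HA1 was below background on all 3 control arrays and at least 1.29-fold higher (fitted log2 change 0.85). VEGFA, the vascular growth factor, lay near background and its groups overlapped. It read 6.55, 6.72 and 6.29 on the knockdown arrays, against 6.35, 6.15 and 6.02 on the control arrays (log2 change 0.35, adjusted p = 0.0458), and its call was lost under 10 of 14 alternatives, where adjusted p ran from 0.0155 to 0.176 over all 14. ADM, the precursor of the vasodilator adrenomedullin, went the other way. It read 11.44, 11.34 and 11.41 on the knockdown arrays, against 11.57, 11.70 and 11.75 on the control arrays (log2 change -0.28, adjusted p = 0.0332), and its call was lost under 9 of 15 alternatives (adjusted p from 0.0191 to 0.191).

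A longer list of other hypoxia targets had 13 of 27 tested genes higher, 4 lower and 10 not passing, that is 48.1% higher and 14.8% lower beside 27.4% and 27.5% of all genes. Its median log2 change was 0.28, or 0.24 with CA12, below background in the controls, at its bound. Under median scaling 8 genes of the list were called higher, where rises among all 9718 genes numbered 1439 in place of 2658. DDIT4, a stress-induced inhibitor of mTORC1, read 12.94, 12.94 and 12.74 on the knockdown arrays, against 10.86, 10.78 and 10.45 on the control arrays, 4.53-fold higher (log2 change 2.18 ± 0.125 SE, adjusted p = 1.64e-07). P4HA2, a paralog of P4HA1, rose 2.29-fold, TMEM45A, a transmembrane protein, 2.09-fold and WSB1, a substrate receptor of a ubiquitin ligase, 1.85-fold. HMOX1, which breaks down heme and is also a target of NRF2, fell 2.15-fold. PPP1R3C, a glycogen-targeting subunit of protein phosphatase 1, fell 1.75-fold, TFRC, the transferrin receptor, 1.40-fold and HILPDA, a lipid droplet protein, 1.28-fold. BNIP3, FAM162A and ANKRD37, also well-known HIF targets and named after their values were seen, were at -0.10, 0.00 and 0.24 and did not pass.

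**Figure D3:**
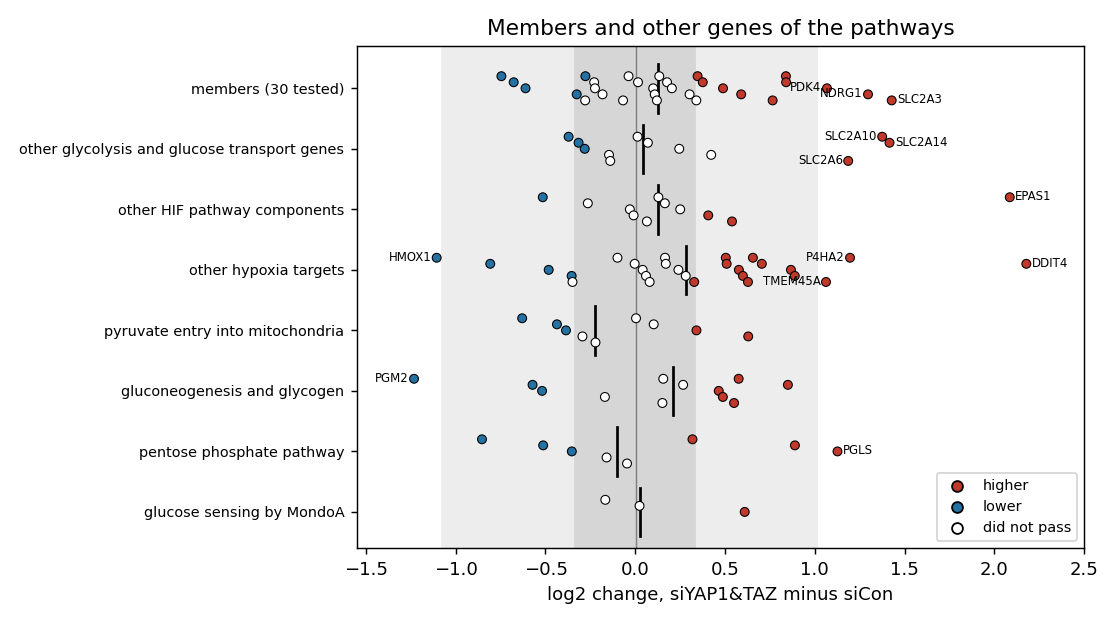
Each point is the log2 change (siYAP1&TAZ minus siCon) of 1 tested gene by its brightest probe, in its list, with the list median as a black bar; grey bands hold the central 50% (-0.33 to 0.33) and 90% (-1.08 to 1.01) of all 9718 genes. Fitted changes of PDK4, SLC2A14 and CA12 are drawn, although these have only a bound. EPAS1 at 2.09 and DDIT4 at 2.18 stand farthest out, and the members spread on both sides of 0.

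Not every call withstood a change of processing. SLC2A1, SLC2A3, PFKP, ALDOA, PKM, NDRG1 and P4HA1 kept their call in 15 of 15 alternatives and PDK4 in 11 of 11, HK2 and PFKFB4 in 14 of 15, PFKM in 13, and ENO2 and LDHB in 12. No called member changed direction in any of them. With arrays scaled to a common median, which placed the median of all genes at -0.11, 7 members rose and 3 fell. Of all 9718 genes, 1439 then rose and 2475 fell, in place of 2658 and 2670. ENO2, PFKM, PFKFB4, VEGFA, LDHB and ADM then lost their calls, and LDHA gained one.

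**Figure D4:**
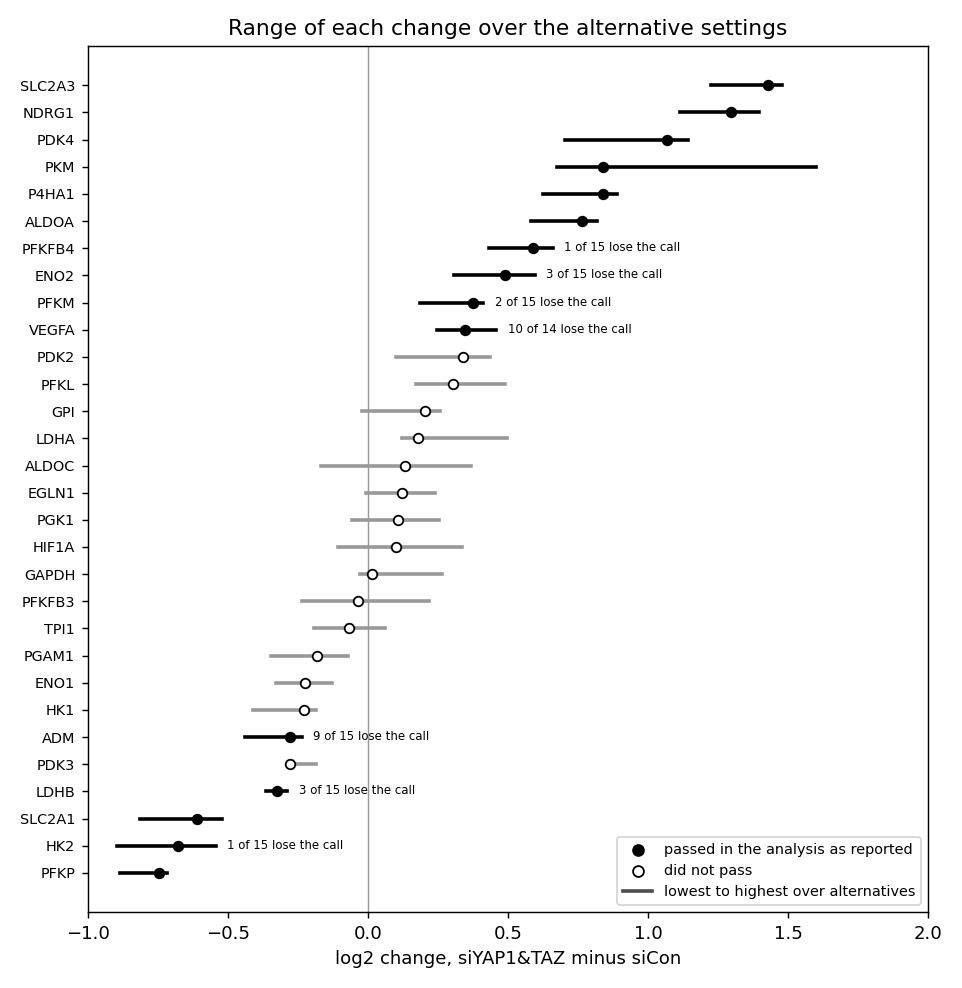
For each tested member the point is the log2 change (siYAP1&TAZ minus siCon) as reported, filled where it passed, and the line spans the lowest to the highest value over the alternatives; text gives how many alternatives lost a call. The lines of the 15 called members do not cross 0, and VEGFA and ADM lost their calls most often.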

How the data were processed

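Total RNA from 6 samples was labelled with biotin and hybridised to Illumina bead arrays, per the labels' protocols. The submitters' processing notes name BeadStudio, with no version or settings. The deposited intensity table holds 1 linear bead intensity per probe and array, without control probes or detection p-values. A further table by the authors is on a log2 scale, and its values share 1 distribution on all arrays (median 6.12); 91.0% lay within 0.1 of quantile-normalised log2 intensities, and any background step of the authors is not stated in the labels.

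The analysis used limma 3.58.1 in R 4.3.3, with normexp on each array's own probes (offset 16), quantile normalisation, log2. Background was the mode of the log2 density (bandwidth 0.05), and a probe stood above it past the upper 0.05 tail of the values below the mode, mirrored. The 15899 probes above background on at least 3 arrays were tested with lmFit and eBayes, two-sided, with Benjamini-Hochberg adjustment over all of them and a threshold of 0.05. Differences are knockdown minus control. A gene was represented by its brightest tested probe, and a gene below background throughout a group has a bound, taken against the lowest value above background on each array. Symbols came from the platform annotation, updated through gene identifiers (30113 of 47231 probes had 1 symbol, 8 several, 17110 none here).

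Members and lists were chosen with earlier results of these data known. All members were named, and of each other list up to 4 genes past the threshold per direction. No set test was made, and the fit was tested on simulated data. Alternatives were the normalisation, background step, filter, covariate, block, probe rule, the authors' values and each array left out. Replicate numbers are shared by both groups, but same-numbered arrays did not deviate together (r of -0.18, -0.13 and -0.01), so they were not treated as pairs.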

Additional observations from a re-analysis of the deposited data

How the results depend on the processing

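YAP1 kept its direction and call under all 15 alternatives (log2 change -2.59 to -2.30) and WWTR1 under the 11 that could test it; requiring all 6 arrays or leaving out any control array removed its probe. Over the 15 called members, 191 of 220 results under alternatives kept their call, 29 lost it and 0 reversed; of 213 results for members that did not pass, 9 gained a call. Median scaling gave 1439 rising genes in place of 2658, so that 36.8% of calls were rises in place of 49.9%, 16 rising genes of the other pathway lists in place of 30, and 3 falling members in place of 5. Without the background filter 3 members and 10 other pathway genes fell, in place of 5 and 17. Falls among all genes then numbered 2051 in place of 2670, with 20046 genes tested in place of 9718. The members' median, 0.13, was 0.22 with background level as a covariate and 0.21 when the probes of a gene were averaged. With 1 array left out, members called lower numbered 2 (without control replicate 2) to 5, members called higher 8 to 10, and the median ran from 0.048 (without knockdown replicate 2) to 0.18. With the replicate number as a replicate block, 10 members rose and 4 fell, ADM losing its call (adjusted p = 0.065), and 2523 genes rose and 2520 fell; no array deviated most like its own number. The causes were not tested. Signal near background limits VEGFA, PDK2, PDK3, PDK4 and ALDOC.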

Other observations

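Genes of the pentose phosphate pathway, which branches off glycolysis to make NADPH and ribose, went both ways. Of 8 tested, 3 rose and 3 fell, 75% called beside 54.8% of all genes. PGLS, its lactonase, read 10.85, 10.74 and 11.03 on the knockdown arrays, against 9.66, 9.73 and 9.84 on the control arrays, 2.18-fold higher (adjusted p = 8.36e-06). TKT, the transketolase that links the pathway back to glycolysis, rose 1.85-fold and PGD, a dehydrogenase that yields NADPH, 1.25-fold (adjusted p = 0.0421). PRPS2 and PRPS1, which turn ribose phosphate into the precursor of nucleotides, fell 1.81-fold and 1.43-fold, and RPIA, the ribose phosphate isomerase, fell 1.28-fold.

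Of 12 tested genes of gluconeogenesis and glycogen, 5 rose and 3 fell, that is 41.7% and 25% beside 27.4% and 27.5% of all genes. Under median scaling 2 of the list were called higher, where rises among all genes also numbered 1439 in place of 2658. G6PC3, a glucose-6-phosphatase, rose 1.80-fold, PGM1, the main phosphoglucomutase, 1.49-fold, PC, the pyruvate carboxylase, 1.46-fold and GBE1, the glycogen branching enzyme, 1.40-fold. PC lay near background, above it on 1 of 3 control arrays. PGM2, another phosphopentomutase and phosphoglucomutase, read 7.17, 7.20 and 7.16 on the knockdown arrays, against 8.53, 8.43 and 8.27 on the control arrays, 2.35-fold lower (adjusted p = 2.48e-06). SLC37A4, the glucose-6-phosphate transporter, fell 1.49-fold and GSK3B, a glycogen synthase kinase, 1.43-fold. TXNIP, a glucose-induced inhibitor of glucose uptake, rose 1.53-fold (adjusted p = 0.00088) but was not called under median scaling, and the other 2 tested genes of glucose sensing by MondoA, ARRDC4 and MLX, were at -0.17 and 0.02.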
